A study of Rattus norvegicus with 9 samples.

Results

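Collagen chain genes code for the protein chains of the collagens. They were taken as the protein-coding genes of the count table whose symbol is made of Col, a number, a and a number, such as Col1a1. The rule found 44 of the 37991 genes in the table, and 41 of them passed the filter on low counts and were tested. The tissue was medial prefrontal cortex (mPFC) of Wistar Kyoto rats, an inbred strain used in work on depression-like behaviour, and its poly(A) RNA was sequenced. Control rats had no treatment. K4 rats had K4 by vein through a cannula, and Ketamine rats had ketamine, an NMDA receptor antagonist, under the skin, in both cases for 7 days. A withdrawal of 7 days followed, and all tissue is labelled day 15. Each group held 3 libraries. The labels give neither dose nor vehicle, do not say what K4 is, and do not say whether each library came from its own animal, so p-values measure only the spread between these libraries. The labels name no cannula or injection for Control, so the effects of drug and route cannot be told apart.

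Collagen chains wind around one another into rope-like helices that cells secrete. The fibrillar chains (types I, II, III, V, XI, XXIV and XXVII) assemble into fibres, the type IV chains into the sheet-like network of basement membranes, and the FACIT chains sit on the surface of fibres. In the brain, type IV collagen is best known from the basement membrane around blood vessels, made largely by endothelial cells and pericytes, while types I and III are made mainly by fibroblasts of the meninges and around larger vessels. Some chains, among them Col19a1 and Col25a1, are known from neurons.

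The type IV genes lie in head-to-head pairs, so that the region between the starts of a pair is the upstream region of both. In RefSeq (build GRCr8), the starts of Col4a1 and Col4a2 on chromosome 16 were 77 bp apart, those of Col4a3 and Col4a4 on chromosome 9 were 413 bp apart, and those of Col4a5 and Col4a6 on chromosome X were 1415 bp apart. Of 27457 genes, 9.62% had a start of the opposite strand within 500 bp in this divergent orientation. The upstream sequences are shown for the chains with a called difference, since these are the members that the results turn on. They are written 5′ to 3′ on the strand of the gene, end just before the start of the gene and hold no transcribed base of it. Capitals mark GGGCGG, a motif bound by Sp1-family factors, or its reverse complement CCGCCC.
Col4a1-Col4a2, the whole interval between the starts, chr16:84885521-84885596, plus strand: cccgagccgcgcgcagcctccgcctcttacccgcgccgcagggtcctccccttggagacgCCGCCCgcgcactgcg
Col4a3, chr9:91323740-91323989, plus strand: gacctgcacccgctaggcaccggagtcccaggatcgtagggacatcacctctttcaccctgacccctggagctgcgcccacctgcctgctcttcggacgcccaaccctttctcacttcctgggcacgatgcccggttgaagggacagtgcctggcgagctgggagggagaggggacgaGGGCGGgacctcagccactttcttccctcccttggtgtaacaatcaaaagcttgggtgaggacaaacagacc
Col4a4, chr9:91323578-91323827, minus strand: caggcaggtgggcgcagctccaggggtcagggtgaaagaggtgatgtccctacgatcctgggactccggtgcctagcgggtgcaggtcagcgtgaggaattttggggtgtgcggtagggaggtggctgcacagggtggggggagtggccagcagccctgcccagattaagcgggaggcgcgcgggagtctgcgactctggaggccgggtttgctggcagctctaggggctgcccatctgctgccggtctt
Col5a1, chr3:31606630-31606879, plus strand: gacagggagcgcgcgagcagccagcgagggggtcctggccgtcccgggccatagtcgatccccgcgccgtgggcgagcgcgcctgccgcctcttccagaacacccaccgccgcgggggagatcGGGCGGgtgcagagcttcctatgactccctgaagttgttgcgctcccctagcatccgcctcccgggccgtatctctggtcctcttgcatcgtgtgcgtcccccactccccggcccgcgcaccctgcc
Col19a1, chr9:34518258-34518507, minus strand: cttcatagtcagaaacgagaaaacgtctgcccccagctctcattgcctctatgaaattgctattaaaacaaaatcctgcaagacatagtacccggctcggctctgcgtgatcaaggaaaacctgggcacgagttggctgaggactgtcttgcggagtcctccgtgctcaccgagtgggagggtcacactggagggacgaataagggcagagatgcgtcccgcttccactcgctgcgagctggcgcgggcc
The Col4a1-Col4a2 interval of 76 bases had a GC content of 78.9%, against 62.0% and 66.4% in the longer Col4a3 and Col4a4 windows (250 bases each), which overlap in part on opposite strands. The Col5a1 window held 28 CpG dinucleotides and the Col19a1 window 16. Searched on both strands, GGGCGG stood in 19 of the 35 chains found in the RefSeq promoter table, whose windows run from 250 bases before to 50 after the start, and in 33.1% of all 33469 windows. TATAAA stood in 4 of the 35 (14.2% of all windows) and CCAAT in 11 (37.5%), and neither lay in the sequences printed. The full windows of Col4a1 and Col4a2, which reach beyond the interval printed, held 2 and 1 matches to CCAAT and 2 each to GGGCGG. These letter matches are descriptions of the windows and not binding sites.

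Collagen chains took 0.0806 to 0.104% of all counts in the 9 libraries, whose totals ran from 27122207 to 42731004. Levels between genes are compared here as the deposited TPM, which is scaled for depth and transcript length. Col11a2, a fibrillar chain that accompanies type II and V collagen, led with a mean TPM of 47.4 over all libraries. It was followed by the vascular chain Col4a2 (27.4) and by the FACIT chains Col19a1 (20.7) and Col16a1 (16.3). Col5a2 (15.3) and Col5a1 (15.0), which join in type V fibres, came next. The type I and III chains that dominate connective tissue were lower, at 12.9 for Col3a1, 9.34 for Col1a2 and 7.19 for Col1a1, and the cartilage chain Col2a1 stood at 0.458. Col6a4, Col10a1 and Col17a1 did not pass the filter on low counts and were not tested. They had at most 15 counts in any library. Col11a2 kept the first place in every group, with 45.4 in Control, 49.3 in K4 and 47.4 in Ketamine. Among its neighbours in the order, the values of single libraries overlapped widely, as the plot of levels by chain shows.

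**Figure D1:**
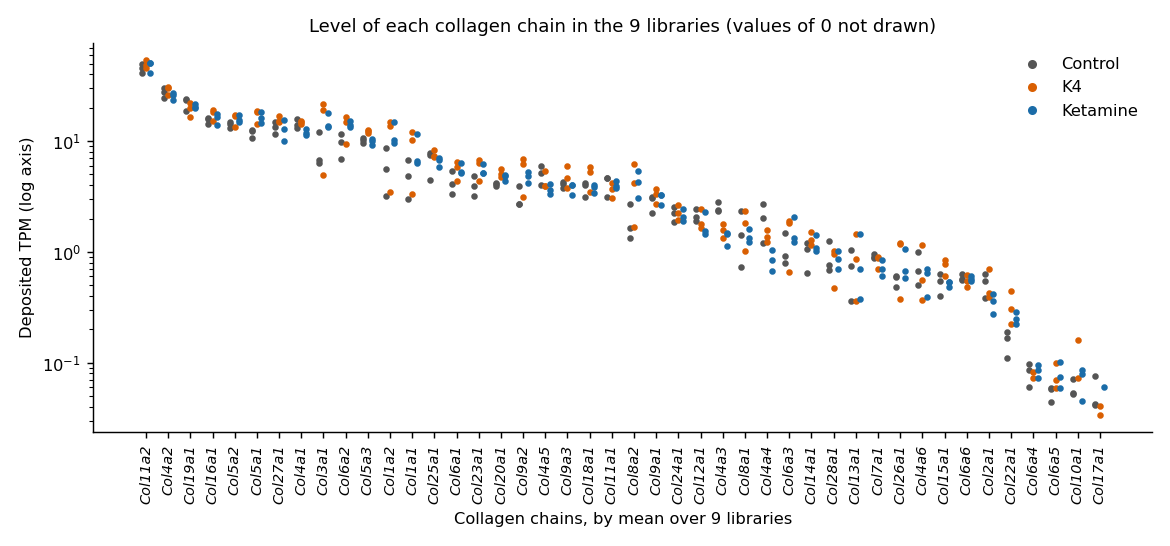
Deposited TPM (log axis) of the 44 collagen chains in each of the 9 libraries, with the chains ordered by their mean and 1 point per library. Col11a2 lies above the rest, most chains lie between 0.1 and 20 TPM, and the points of Col3a1, Col1a2 and Col1a1 are more spread than those of chains of like level such as Col4a1.

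Between groups, expression is given as CPM (normalised read count, scaled by TMM-corrected library size), and a chain was called at an adjusted p below 0.05 from edgeR's quasi-likelihood test, adjusted over all 18047 genes tested. Against Control, K4 had 2 of 41 chains called, both lower (Col4a3 and Col19a1), where 6.07% of all genes were called, 2.27% higher and 3.8% lower. Ketamine had 5 called, of which Col5a1 rose and Col4a1, Col4a2, Col4a3 and Col4a4 fell, where 16.7% of all genes were called, 6.95% higher and 9.75% lower. The collagen counts are close to what these shares give. K4 against Ketamine had 0 chains called, as for all genes (0%), with 2 chains at an unadjusted p below 0.05 (9.13% of all genes) and 0 called by DESeq2. The median log2 fold change of the 41 chains was 0.07 for K4 against Control, −0.12 for Ketamine against Control and 0.09 for K4 against Ketamine, where that of all genes was 0. Both treated groups were compared with the same Control libraries, so the comparisons are not independent of each other. Without the library that stood lowest in most chains of its group, K4 replicate 2, the counts of called chains were 3 for K4 and 8 for Ketamine. Control replicate 2 was the highest of all 9 libraries in 13 of 41 chains (31.7%, against 20.2% of all genes), among them Col4a1, Col4a2, Col4a3 and Col4a5. It was the lowest in 7 (17.1%, against 17.5%). In it, 13 mitochondrial genes took 19% of counts, against 10.4 to 14.6% in the other libraries. Without it, 3 chains were called for K4 and 5 for Ketamine.

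**Figure D2:**
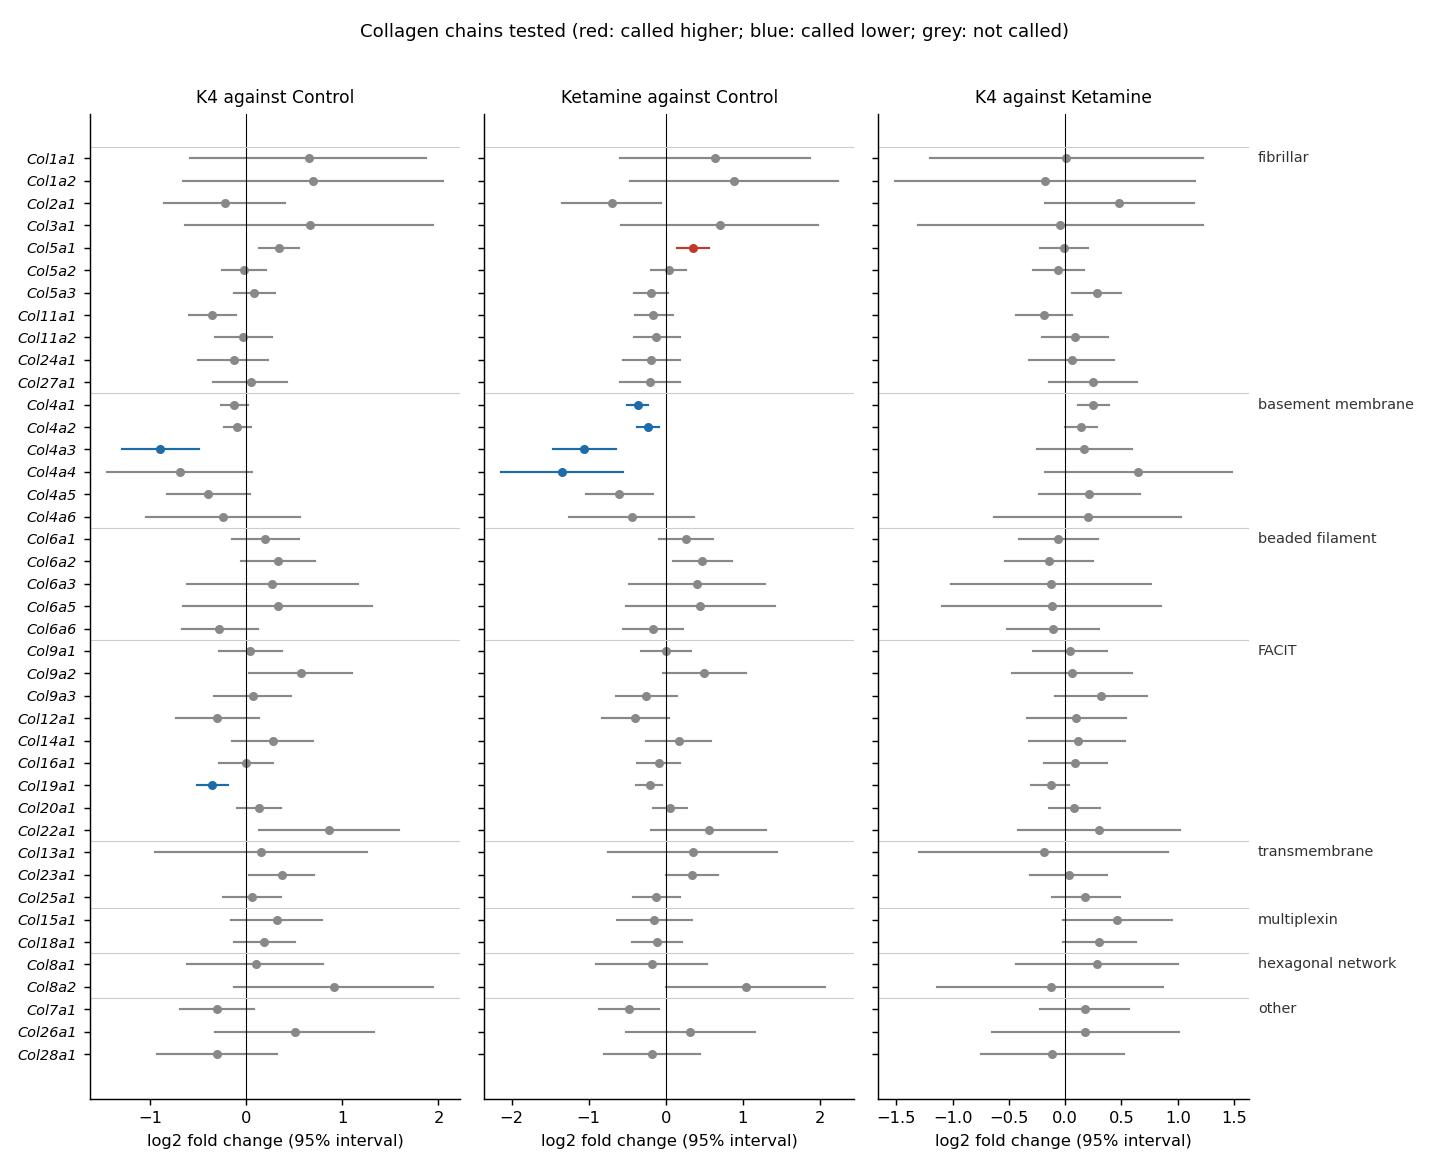
Log2 fold change (point) with its 95% interval (line) of each of the 41 tested collagen chains in the 3 comparisons, grouped by class. The 4 chains called lower for Ketamine are type IV chains, and every type IV point lies below 0 in both comparisons with Control (for K4, 4 of 6 with the length offset) and above 0 for K4 against Ketamine.

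Counts of long and short transcripts were not in the same proportion in the 3 groups, which bears on collagens because their transcripts are long. The median length implied by the deposited counts and FPKM was 6.26 kb for the tested chains and 2.93 kb for all genes tested. The slope of log2 CPM per doubling of length, taken against each gene's mean over the libraries, was 0.043 to 0.070 in Control, −0.020 to 0.002 in K4 and −0.066 to −0.018 in Ketamine. A fit with an offset that removes this trend is given beside each called chain as the length-adjusted value. With it, the median over the chains was 0.11 for K4 and 0.08 for Ketamine (0.01 for all genes in both), so the Ketamine median changed sign. K4 then had Col4a3 called lower and Col5a1 higher (2.38% of all genes called, 1.2% higher and 1.18% lower), and Ketamine had Col4a3 and Col4a4 lower and Col5a1 higher (7.6% of all genes, 3.23% higher and 4.37% lower).

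Of the 6 basement membrane (type IV) chains, 4 fell in Ketamine, where 9.75% of all genes were called lower. The others, Col4a5 and Col4a6, had values of −0.60 and −0.44 on the log2 scale. The class median was −0.52 where all genes had 0. With the length offset, 2 of the 6 were called lower in Ketamine (4.37% of all genes). The class median was then −0.35 (0.01 for all genes). The summed TPM of the 6 chains, mostly from Col4a2 and Col4a1, was 48.7 to 54.2 in Control, 47.4 to 55.5 in K4 and 40.4 to 46.5 in Ketamine. On that scale the Ketamine libraries lay below all others, by a narrow margin from K4. With limma on log2 of TPM plus 0.1, Col4a1 (−0.23, adjusted p = 0.21) and Col4a2 (−0.1, adjusted p = 0.637) were not called in Ketamine. In that fit 2 of the 6 were called lower. In K4 the class median against Control was −0.32, with 1 of 6 called lower (3.8% of all genes) and all 6 values negative. With the length offset, however, Col4a1 and Col4a2 stood at 0.01 and 0.03 in K4. The K4 class median was −0.66 without K4 replicate 1 and −0.21 without K4 replicate 3. With limma on log2 of TPM plus 0.1 or 1 it was −0.16 or −0.10. In the fits without K4 replicate 1 or 3 and in the limma fits 0 of the 6 were called, and 0 were also called without Control replicate 1 (median −0.26). With the length offset 1 of the 6 was called lower in K4 (median −0.21). In tissue RNA, fewer cells of a type and less RNA per cell cannot be told apart.

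Col4a1 codes for the chain that, with the product of Col4a2, forms the main type IV network of vessels. Its CPM was 48.1, 52.6 and 50.1 in Control replicates 1 to 3, 46.5, 46.4 and 46.1 under K4, and 42.0, 37.6 and 37.5 under Ketamine. All Ketamine libraries lay below all K4 libraries, and those below all Control libraries. Col4a1 fell in Ketamine by 0.36 on the log2 scale (SE 0.0644, 95% interval −0.50 to −0.23, adjusted p = 0.00295), and it was called in each of the 9 fits that left out 1 library. In K4 the difference from Control was −0.12 (adjusted p = 0.289). The length-adjusted difference for Ketamine was −0.17 and was not called (adjusted p = 0.104).

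Col4a2 stood at 94.8, 97.0 and 95.1 CPM in Control, 94.4, 83.4 and 91.1 under K4, and 84.0, 85.1 and 75.4 under Ketamine. The Ketamine and Control libraries did not overlap. Col4a2 fell in Ketamine by 0.23 (SE 0.0647, adjusted p = 0.0281), the smallest called difference among the chains, and was called in 5 of 9 fits that left out 1 library. It lost the call without Control replicate 1 (adjusted p = 0.0805), Control replicate 3 (0.0564), Ketamine replicate 2 (0.058) or Ketamine replicate 3 (0.126), and length-adjusted it was −0.04 (adjusted p = 0.777). The TPM of Col4a2 was 1.83 to 2.30 times that of its partner Col4a1 in all 9 libraries. The K4 value against Control was −0.09 (adjusted p = 0.419).

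Col4a3 and Col4a4 belong to the chain set best known from kidney and ear basement membranes. Col4a3 had 7.11, 9.72 and 6.41 CPM in Control, 3.503, 4.95 and 4.09 under K4, and 4.01, 4.02 and 3.15 under Ketamine. Every Control library lay above all 6 treated libraries. Col4a3 fell by 1.06 in Ketamine (SE 0.188, 95% interval −1.46 to −0.65, adjusted p = 0.00302), a level 2.08-fold below Control, and by 0.89 in K4 (SE 0.186, 95% interval −1.29 to −0.49, adjusted p = 0.0191). Length-adjusted, both remained called, at −0.89 (adjusted p = 0.0143) for Ketamine and −0.79 (adjusted p = 0.0466) for K4. The Ketamine call held without any one library, whereas the K4 call was lost without Control replicate 1 (adjusted p = 0.0571), K4 replicate 1 (0.0795) or K4 replicate 3 (0.0728). A gene described as alpha-3(IV) chain-like, LOC100911572, had 107 to 251 counts in each library and could share reads with Col4a3. Its own differences were −0.49 for K4 (adjusted p = 0.0924) and −0.40 for Ketamine (adjusted p = 0.107), and with its counts added to Col4a3 the differences were −0.71 (adjusted p = 0.0193) and −0.75 (adjusted p = 0.0055).

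Col4a4 was the least abundant called chain, with 13 to 68 counts in a library. It had 1.64, 1.46 and 0.693 CPM in Control, 0.861, 0.733 and 0.743 under K4, and 0.397, 0.605 and 0.492 under Ketamine. Control replicate 3 lay below all K4 libraries and just above the Ketamine libraries, which overlapped neither group. Col4a4 fell in Ketamine by 1.34 (SE 0.368, 95% interval −2.14 to −0.55, adjusted p = 0.0252), and by a length-adjusted 1.48 (adjusted p = 0.0282). The call was lost in 5 of 9 fits with 1 library left out, without Control replicate 1 (adjusted p = 0.112) or 2 (0.0603) or without Ketamine replicate 1 (0.0758), 2 (0.059) or 3 (0.0775). Its implied transcript length of 1.34 kb was far below the 6.17 to 7.5 kb of the other type IV chains, so the counted gene model may not cover the whole transcript.

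Col4a5 and Col4a6 form the remaining X-linked pair and were not called with edgeR. Col4a5 had 17.9, 23.8 and 12.7 CPM in Control, 16.6, 12.8 and 12.1 under K4, and 11.8, 13.0 and 10.99 under Ketamine, with Ketamine against Control at −0.60 (SE 0.199, adjusted p = 0.0603, and 0.0122 with DESeq2). Control replicate 2 was its highest library, and Control replicate 3 lay among the treated ones. Col4a6 varied by library more than by group, with 2.83, 1.66 and 1.76 CPM in Control, 2.88, 0.978 and 1.42 under K4, and 1.74, 1.82 and 1.07 under Ketamine (Ketamine against Control −0.44, SE 0.372, adjusted p = 0.458).

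**Figure D3:**
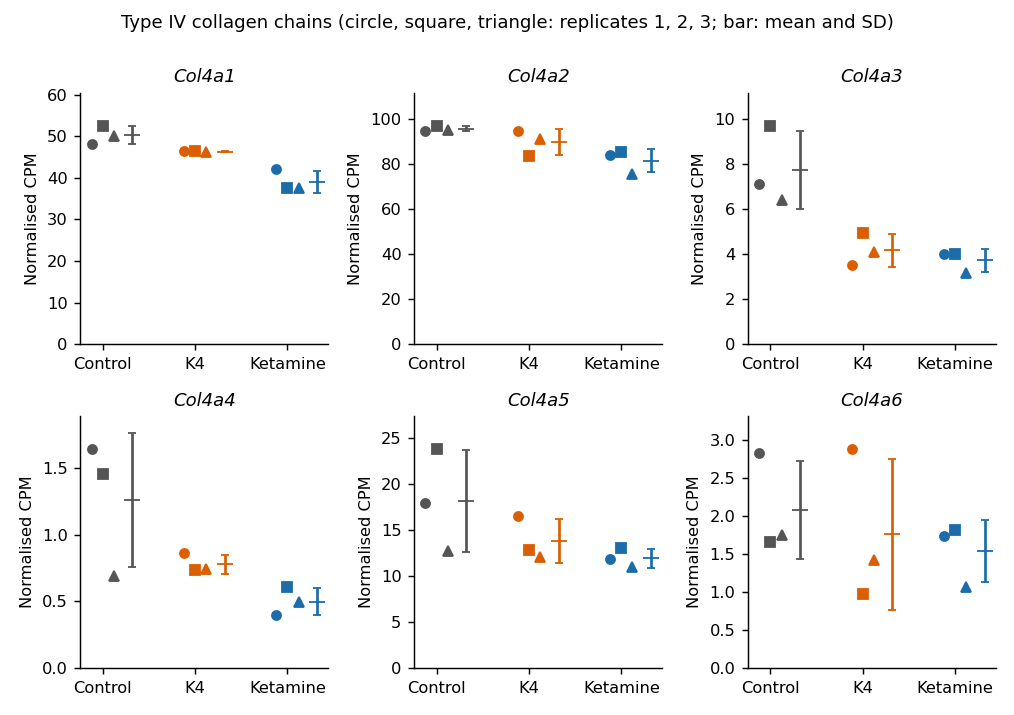
CPM of the 6 type IV chains in Control, K4 and Ketamine, with 1 symbol per replicate and the mean and SD of 3 libraries beside them. Col4a1, Col4a2, Col4a3 and Col4a4 show no overlap between Ketamine and Control, and Col4a4, Col4a5 and Col4a6 show a wide spread within Control.

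K4 against Ketamine gave no called type IV chain, and all 6 values were positive, between 0.14 and 0.65. The lowest type IV value was −0.36 without K4 replicate 1 and −0.01 without Ketamine replicate 3. Col4a1 had the smallest p of all chains there, at 0.25 with a 95% interval of 0.11 to 0.39, an unadjusted p of 0.00215 and an edgeR adjusted p of 0.331. The Col4a3 difference was 0.17 with an interval of −0.25 to 0.59, which does not show that the groups were alike.

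Some markers of vascular cells fell as well. Of 10 endothelial markers, 3 fell in Ketamine (Flt1 by 0.96, Tek by 0.58 and the transporter gene Abcb1a by 1.00, edgeR adjusted p from 0.00113 to 0.00372), all 10 had negative values, and their median was −0.43. Their summed TPM was 287 to 326 in Control, 273 to 307 in K4 and 221 to 269 in Ketamine. Of 10 mural cell markers, which stand for pericytes and vascular smooth muscle, 3 fell in Ketamine (Rgs5 by 1.47, Abcc9 by 1.02 and Notch3 by 1.07), while 4 had positive values up to 0.60 (Higd1b, adjusted p = 0.143) and the list median was −0.11, with summed TPM of 191 to 223 in Control, 158 to 212 in K4 and 133 to 206 in Ketamine. In K4, 2 markers of each list were called lower (Flt1 and Abcb1a, and Rgs5 and Notch3), the medians were −0.18 and −0.23, and 3 mural values were positive. With the length offset, 1 endothelial marker was called lower in K4 and 3 in Ketamine, and 2 and 3 mural markers. Calls of lower expression were not limited to vascular markers. They included 2 of 6 astrocyte markers in K4 and 5 of 6 in Ketamine (1 and 2 with the length offset), 2 and 4 of 6 oligodendrocyte precursor markers (0 and 2 with the offset) and 1 and 3 of 6 microglia markers (1 and 2 with the offset), where 3.8% and 9.75% of all genes were called lower (1.18% and 4.37% with the offset). The part of these cell types in the type IV differences was not tested.

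Among the fibrillar chains, Col5a1 was the only one called with edgeR. It codes for the chain that starts and limits the growth of type I fibres. It had 51.8, 50.3 and 44.9 CPM in Control, 66.6, 54.1 and 66.0 under K4, and 70.05, 60.8 and 56.8 under Ketamine. Every treated library lay above every Control library. Col5a1 rose in Ketamine by 0.35 (SE 0.0964, 95% interval 0.14 to 0.56, adjusted p = 0.0261), and its K4 difference of nearly the same size, 0.34 (SE 0.0963, 95% interval 0.14 to 0.55), missed the threshold (adjusted p = 0.054, and 0.0122 with DESeq2). The length-adjusted values were larger and called in both, at 0.59 (adjusted p = 0.00272) for Ketamine and 0.49 (adjusted p = 0.0181) for K4. The Ketamine call was lost without Control replicate 3 (adjusted p = 0.0572), Ketamine replicate 1 (0.0948) or Ketamine replicate 2 (0.0726). Its type V partner Col5a2 stood at 0.04 for Ketamine (adjusted p = 0.856), and K4 and Ketamine differed in Col5a1 by −0.01 (95% interval −0.22 to 0.20).

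The type I and III chains had higher means in both treated groups, and none was called. Col1a1 had 20.6, 10.6 and 13.8 CPM in Control, 33.1, 9.62 and 28.1 under K4, and 33.1, 17.8 and 19.3 under Ketamine. For Col1a2 the values were 20.3, 8.81 and 12.2 in Control, 31.1, 7.67 and 28.4 under K4, and 32.8, 20.7 and 22.7 under Ketamine. Col3a1 had 30.7, 18.6 and 15.7 in Control, 48.8, 11.7 and 42.2 under K4, and 42.2, 31.1 and 32.7 under Ketamine. In each, K4 replicate 2 was the lowest of all 9 libraries while the other two K4 libraries were among the highest. Its level was 0.315 of their mean for Col1a1 and 0.257 for Col1a2 and Col3a1. Against Control, the log2 differences in Ketamine were 0.64 (SE 0.511, adjusted p = 0.452), 0.88 (SE 0.56, adjusted p = 0.346) and 0.70 (SE 0.532, adjusted p = 0.426), with K4 at 0.65, 0.70 and 0.66. The 95% intervals for Ketamine were −0.59 to 1.87, −0.46 to 2.23 and −0.58 to 1.98, all of which include 0. A separate gene entry described as type I alpha 2, NEWGENE_621351, had 266 to 1149 counts in a library and may split reads with Col1a2.

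This pattern over libraries was shared by other chains and by fibroblast genes. K4 replicate 2 was the lowest K4 library in 27 of 41 chains (65.9%, against 34.7% of all genes tested) and in 12 of 12 markers of meningeal or perivascular fibroblasts. The chains with the largest spread within groups were Col1a2 and Col13a1 (pooled SD of log2 CPM 0.77 in both), Col3a1 (0.73), Col1a1 (0.68) and Col8a2 (0.64), where the median was 0.256 over the chains and 0.144 over all genes. Col4a1 (0.07) and Col4a2 (0.08) had the smallest. Summed fibroblast marker TPM was 811 to 1768 in Control, 912 to 3564.5 in K4 and 2126 to 3684 in Ketamine. Most of this sum came from 1 gene, Ptgds (mean TPM 1940, with Igfbp2 next at 50.7), so it says little about the other markers. None of the 12 markers was called in either comparison with Control (3 at an unadjusted p below 0.05 in K4 and 2 in Ketamine, against 23.5% and 31.3% of all genes, and DESeq2 called 1 and 0), while 8 of 12 did not overlap between Ketamine and Control, all higher (16.9% of all genes). Between K4 and Control, 0 of these markers were higher without overlap and 1, Lum, was lower (13.3% and 14.2% of all genes). In K4, 10 of the 12 markers had positive values and 2 negative. Their part in the fibrillar values was not tested. Of 6 choroid plexus markers, Folr1 and Clic6 were at 0 TPM in all libraries, and Ttr reached at most 0.325 TPM. Kl stood at 0.108 to 0.322 TPM, Aqp1 at 0.435 to 3.62 and Kcne2 at 1.47 to 2.74. The 3 that were tested had positive values in both comparisons with Control (medians 0.38 in K4 and 0.42 in Ketamine), and 0 were called.

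**Figure D4:**
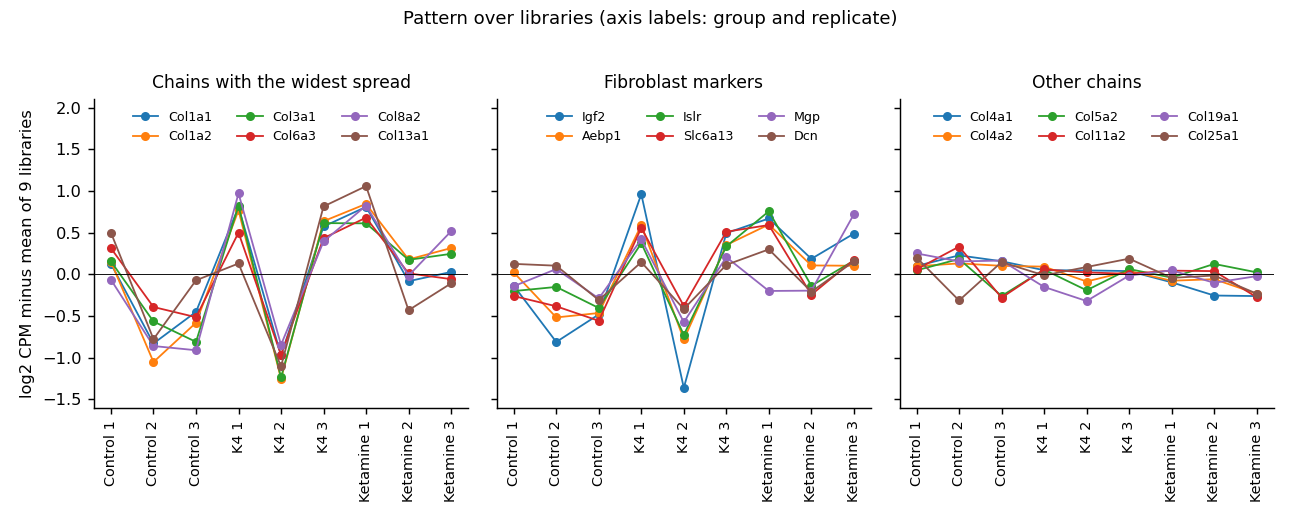
Log2 CPM of single genes in each of the 9 libraries, as the difference from the gene's mean over the libraries, for the 6 chains with the largest spread within groups, for 6 fibroblast markers and for 6 other chains. In the first 2 panels K4 replicate 2 lies below K4 replicates 1 and 3 for every gene, and in the third all points lie within 0.5 of the mean.

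Of the other fibrillar chains, Col11a2 varied with the library and not with the group, at 182, 220.1 and 144 CPM in Control, 182, 178 and 176 under K4, and 180.25, 179.6 and 145 under Ketamine (Ketamine against Control −0.12, SE 0.134, adjusted p = 0.602). Col11a1, which joins Col11a2 in type XI fibres, had 18.9, 14.8 and 17.3 in Control, 13.4, 11.8 and 14.9 under K4, and 14.3, 16.2 and 15.2 under Ketamine. Its K4 difference of −0.35 (SE 0.114) had an adjusted p of 0.0863 with edgeR and 0.0499 with DESeq2. The 11 fibrillar chains had medians of 0.05 in K4 and −0.12 in Ketamine, and of 0.20 and 0.11 with the length offset (0.01 for all genes in both).

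The FACIT chain Col19a1, known from a subset of cortical interneurons and from the forming synapse, fell in K4. It had 129.8, 121 and 122 CPM in Control, 98.2, 87.4 and 108 under K4, and 113, 102 and 107 under Ketamine. All Control libraries lay above all treated ones. The fall in K4 was 0.35 on the log2 scale (SE 0.0747, 95% interval −0.51 to −0.19, adjusted p = 0.0204), and the Ketamine value was −0.21 (SE 0.0746, adjusted p = 0.066, and 0.0482 with DESeq2). K4 and Ketamine differed by −0.13 (95% interval −0.30 to 0.03, adjusted p = 0.63), so a difference between the treatments was not shown. Col19a1 has an implied length of 12 kb, and length-adjusted the K4 value was −0.16 (adjusted p = 0.218) and the Ketamine value 0.08 (adjusted p = 0.554). The K4 call was also lost without Control replicate 1 (adjusted p = 0.106), K4 replicate 1 (0.071) or K4 replicate 2 (0.0734). Of 6 neuron markers, none was called with edgeR in K4, where Col19a1 was called (3 at an unadjusted p below 0.05, DESeq2 called 1, median 0.07), and the interneuron genes Gad2 and Gad1 stood at −0.35 (adjusted p = 0.0557) and −0.04 (adjusted p = 0.754). In Ketamine, Gad2 fell by 0.63 (adjusted p = 0.00175), Gad1 stood at −0.07 and the list median was 0.08.

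Col16a1 had 45.4, 53.5 and 36.4 CPM in Control, 48.6, 40.6 and 45.9 under K4, and 46.7, 42.6 and 38.0 under Ketamine, with overlap of all groups and differences from Control of 0.00 and −0.09. The 9 FACIT chains had medians of 0.07 in K4 and 0.00 in Ketamine, and values from −0.40 (Col12a1) to 0.56 (Col22a1) in Ketamine. Col22a1 had higher values in every treated library than in Control, but at 0.530 CPM in Control its differences of 0.86 in K4 (SE 0.339, adjusted p = 0.147) and 0.56 in Ketamine (SE 0.344, adjusted p = 0.298) were not called.

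**Figure D5:**
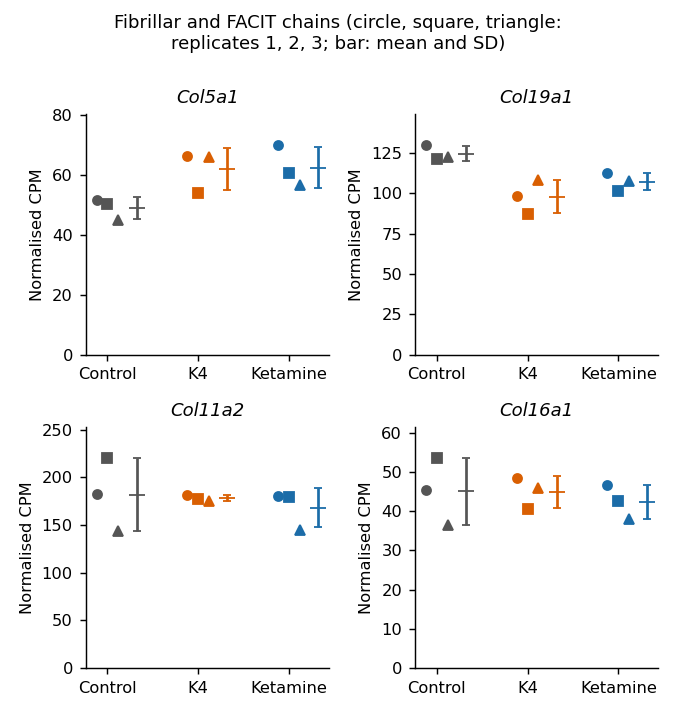
CPM of Col5a1, Col19a1, Col11a2 and Col16a1 in the 3 groups, with 1 symbol per replicate and the mean and SD of 3 libraries beside them. The Control libraries lie below all treated ones for Col5a1 and above them for Col19a1, and the groups overlap for Col11a2 and Col16a1.

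None of the remaining 15 chains tested was called with edgeR, and DESeq2 called 1 of them, Col6a2 in Ketamine. The beaded filament chain Col6a1 had 11.5, 8.27 and 8.06 CPM in Control, 11.1, 8.74 and 12.2 under K4, and 12.6, 10.01 and 10.7 under Ketamine (Ketamine against Control 0.26, SE 0.16, adjusted p = 0.299). The class of 5 tested type VI chains had medians of 0.27 in K4 and 0.40 in Ketamine, and Col6a2 had the lowest adjusted p among them (0.47 in Ketamine, edgeR adjusted p = 0.0913, DESeq2 adjusted p = 0.0248). Col18a1, the basement membrane chain that releases endostatin, had 10.6, 9.57 and 10.1 CPM in Control, 13.6, 8.59 and 12.3 under K4, and 10.03, 8.26 and 9.63 under Ketamine. Its groups overlapped (Ketamine against Control −0.11, SE 0.15, adjusted p = 0.65). The transmembrane chain Col25a1, a neuronal collagen also found in amyloid plaques, had 9.88, 6.92 and 9.52 CPM in Control, 8.52, 9.14 and 9.79 under K4, and 8.35, 8.51 and 7.32 under Ketamine, with differences from Control of 0.06 and −0.12. Col8a2, a hexagonal network chain, had the highest log2 fold change of all chains in Ketamine at 1.04, with an SE of 0.449 and an adjusted p of 0.157.

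Over all 41 chains, the groups did not overlap in 6 for K4 against Control (2 higher, 4 lower, where 27.5% of all genes did not overlap, 13.3% higher and 14.2% lower), in 14 for Ketamine against Control (7 higher, 7 lower, against 35% of all genes, 16.9% higher and 18.1% lower) and in 5 for K4 against Ketamine (5 higher, 0 lower, against 17.8% of all genes, 9.49% higher and 8.29% lower). Those higher in K4 than in Ketamine were Col4a1, Col4a4, Col5a3, Col15a1 and Col25a1. The 35 chains other than type IV had medians of 0.14 in K4 and 0.00 in Ketamine, against −0.32 and −0.52 in type IV. With the length offset these were 0.20 and 0.11, against −0.21 and −0.35 in type IV.

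Genes that act on collagens were described from 5 lists, to be read against the shares of all genes called lower (3.8% in K4, 9.75% in Ketamine) and higher (2.27% and 6.95%). Of 22 genes of collagen biosynthesis in the endoplasmic reticulum, 1 fell in K4 (Plod2, a lysyl hydroxylase, by 0.61, edgeR adjusted p = 0.0451) and 1 in Ketamine (Colgalt2, a collagen galactosyltransferase, by 0.47, adjusted p = 0.0124), with list medians of −0.01 and 0.00. Plod2 was called in 1 of 9 fits that left out 1 library and not with the length offset (−0.57, adjusted p = 0.0779), whereas Colgalt2 was called in all 9 and with the offset (−0.39, adjusted p = 0.0482). Of 14 tested genes of processing and crosslinking, Adamts2, which removes the N-terminal propeptide of fibrillar collagens, rose in K4 by 0.59 (adjusted p = 0.0391, called in 3 of 9 such fits; length-adjusted 0.71, adjusted p = 0.0297), and none was called in Ketamine (2 at an unadjusted p below 0.05, DESeq2 called 2). The medians were 0.19 and 0.11. Of 12 degradation genes, the membrane protease gene Mmp16 fell in K4 by 0.31 (adjusted p = 0.0237) and in Ketamine by 0.57 (adjusted p = 0.000543). The inhibitor gene Timp2 rose in K4 by 0.25 (adjusted p = 0.0473), and the protease gene Mmp24 fell in Ketamine by 0.24 (adjusted p = 0.0327). The degradation medians were −0.01 and 0.03. Length-adjusted, Mmp16 was −0.27 in Ketamine (adjusted p = 0.0349) and the other calls of this list were lost, with Mmp16 at −0.12 (adjusted p = 0.343) and Timp2 at 0.20 (adjusted p = 0.132) in K4 and Mmp24 at −0.15 (adjusted p = 0.217) in Ketamine. Timp2 was called in 1 of 9 fits with 1 library left out, Mmp16 in K4 in 5 and Mmp24 in 4.

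Of 9 tested collagen receptors, 3 fell in Ketamine (9.75% of all genes called lower), the integrin alpha-1 gene Itga1 by 1.62 (adjusted p = 0.00292), its partner Itgb1 by 0.57 (adjusted p = 0.0151) and the immune receptor gene Lair1 by 1.07 (adjusted p = 0.0443). The receptor median was −0.22. None was called in K4 (3 at an unadjusted p below 0.05, DESeq2 called 2, median 0.02). Of 16 collagen-associated matrix genes, 6 fell in Ketamine and 3 in K4 (9.75% and 3.8% of all genes), with medians of −0.22 and −0.16. The fibronectin gene Fn1 fell in Ketamine by 0.72 (adjusted p = 0.00139) and the laminin gene Lamc1 by 0.40 (adjusted p = 0.00236), with Lama4 at −0.35 and Lama5 at −0.41. In K4 the laminin genes Lamc1, Lama4 and Lama5 fell by 0.30, 0.32 and 0.39 (edgeR adjusted p of 0.0238, 0.0362 and 0.0452). Their K4 calls held in 6, 4 and 0 of 9 fits with 1 library left out, so the Lama5 call was lost whichever library was left out. Length-adjusted, Fn1 in Ketamine was the only matrix gene still called lower (−0.48, adjusted p = 0.0139), and 1 of the 16 was called higher there. In K4, 0 of the 16 were called with the offset. Among the receptors in Ketamine, Itga1 and Itgb1 kept their calls with the offset (adjusted p = 0.00681 and 0.038). Lair1 did not (adjusted p = 0.0903), and it was called in 3 of 9 fits with 1 library left out.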

How the data were processed

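The submitters' processing notes name HISAT2 2.1.0, StringTie 2.1.3b, Trimmomatic and bcl2fastq 2.20.0 and the build rn6. Counter and strand setting are not given in the sources used, so chains with near-identical copies are uncertain. The values used are the authors' raw count of reads per gene, not normalised. FPKM and TPM come from a table per library, per the file headers. Library preparation selected poly(A) RNA and kept strand, per the labels' protocols.

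The counts were fitted with edgeR 4.0.16 under R 4.3.3 (TMM, filterByExpr with minimum count 10 and minimum total 15, robust quasi-likelihood fit of all 9 libraries). This kept 18047 of 37991 genes. Fold changes are log2 differences, and p-values were adjusted by Benjamini-Hochberg over all genes tested and called below 0.05. The common biological coefficient of variation was 10.2%. The length offset removed a lowess trend (span 0.3) of each library's log2 CPM over implied length. The test was tried first on simulated data. Values in every library are given for each chain called, for the 4 chains with the highest mean TPM and for a fixed set; chains beyond these that are singled out were chosen after their values were seen. Members, pathway lists and markers were chosen with earlier results of these data known; 151 of 152 list entries matched a gene. Of the 44 chains, 35 matched the RefSeq promoter table (GRCr8), and coordinates are of that build. DESeq2 1.42.0 and limma 3.58.1 were used for alternatives, and matplotlib 3.10.9 for plots. Total counts per library are the depth, which limits precision for chains under about 1 CPM.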

Additional observations from a re-analysis of the deposited data

How the results depend on the processing

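The count of called chains against Control moved with the tool. For K4 it was 2 with edgeR, 4 with DESeq2, 1 with only the libraries of both groups and 0 with limma on log2 of TPM plus 0.1 or plus 1. For Ketamine it was 5 with edgeR, 8 with DESeq2, 3 with the length offset and 2 with limma at either pseudocount. K4 against Ketamine gave 0 chains in every setting run. Leaving out 1 library gave 0 to 3 chains for K4 (0 without Control replicate 1 or K4 replicate 1, and 1 without K4 replicate 3) and 2 to 8 for Ketamine (2 without Ketamine replicate 2, 3 without Ketamine replicate 3 and 8 without K4 replicate 2). Upper quartile scaling, no filter on low counts and the addition of look-alike genes, the last chosen after seeing the data, gave 3, 3 and 3 chains for K4 and 5, 5 and 6 for Ketamine.

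With the replicate number as a block, 4 chains were called for K4 and 10 for Ketamine, and 3 and 5 with the block and length offset together. The labels do not say that the numbers pair the libraries. Same-numbered libraries had correlations of 0 to 0.11, others −0.16 to 0.07, and a library correlated best with its own number in 14 of 18 cases.

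All genes called were 1095 for K4 (409 higher, 686 lower) and 3013 for Ketamine (1254 higher, 1759 lower). DESeq2 called 1890 for K4, the fit of both groups 452, the length offset 430 (217 higher, 213 lower), the block with offset 497, and limma on TPM 444 (409 higher, 35 lower) and 430. For Ketamine the offset gave 1372, the block with offset 1374, and limma on TPM 1351 (1016 higher, 335 lower) and 1322. Upper quartile scaling split K4 calls into 527 higher and 563 lower and Ketamine calls into 1587 and 1549. The K4 against Ketamine count of 0 became 70 with DESeq2 and 27 with only those libraries. Leaving out 1 library gave 174 (without Control replicate 1) to 1548 for K4 and 1177 (without Ketamine replicate 2) to 3191 for Ketamine. On TPM the median of all genes shifted by 0.16 (K4) and 0.12 (Ketamine). The 6 type IV values for Ketamine were negative in all of these settings, and for K4 4 of 6 were negative with the length offset or on TPM and 5 of 6 without Control replicate 1 or K4 replicate 2. The cause of these moves was not tested. Depth limits the chains of few counts, such as Col4a4.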

Other observations

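A few further gene entries with collagen descriptions lay outside the symbol rule and gave values not described above. LOC103693323, described as the alpha-1(XXIII) chain, had 356 to 527 counts in each library. It stood at 10.1, 9.54 and 9.77 CPM in Control, 15.6, 11.3 and 13.4 under K4, and 14.3, 12.7 and 13.2 under Ketamine, with every treated library above every Control library. It rose by 0.46 in K4 (SE 0.116, edgeR adjusted p = 0.0388) and by 0.45 in Ketamine (SE 0.117, edgeR adjusted p = 0.0199). The transmembrane chain Col23a1 itself had differences of 0.37 (adjusted p = 0.18) and 0.34 (adjusted p = 0.165). With both entries summed, the differences were 0.43 (SE 0.113, adjusted p = 0.0431) and 0.41 (SE 0.113, adjusted p = 0.0255). LOC100911886, described as alpha-2(XI) chain-like, had 753 to 1316 counts and differences of −0.09 (adjusted p = 0.731) and −0.18 (adjusted p = 0.389), close to those of Col11a2. These entries were chosen after their values were seen.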
